A study of Mus musculus with 18 samples.

Results

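*Napsa*, *Padi4*, *Lratd1*, *Ms4a4c*, *Tdrp*, *Sostdc1*, *Chn2*, *Pde3b*, *Susd2* and *Cxxc5* are 10 genes, of 55284 named entries in the count table, that stood among the most significantly higher genes in DKO over WT anergic CD4 T cells or in the genotype by anergy interaction. DKO cells came from *Nr4a1*-/- *Nr4a3*-/- donors (CD45.2) and WT cells from CD45.1/2 donors, and both developed side by side in irradiated BoyJ hosts that had received WT marrow in excess. Both deletions were germline, so every cell of DKO origin carried them. From each of 3 such chimeras, numbered 10, 11 and 12 in the labels, CD4+CD25- T cells of either genotype were sorted into an anergic gate (CD62L low, CD44 high, FR4 high, CD73 high) and a naive gate (CD62L high, CD44 low, FR4 low, CD73 low), and naive cells were also sequenced after 3 h on plate-bound anti-CD3 at 8 μg/ml with anti-CD28 at 2 μg/ml. This gave 18 libraries, 3 for each of DKO anergic, WT anergic, DKO stimulated, WT stimulated, DKO naive and WT naive cells, with 16122020 to 39752234 counts a library. The replicate is the chimera, a host animal, and every chimera gave both DKO and WT cells.

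T cell anergy is a state of lasting hyporesponsiveness that follows antigen recognition under conditions that do not support full activation. FR4 with CD73 is used to mark such cells among antigen-experienced CD4 T cells, in the study's flow analysis among FOXP3-negative ones. The sort for sequencing left out CD25+ cells, which removes much but not all of the FOXP3+ Tregs. The NR4A proteins are orphan nuclear receptors whose genes are switched on by T cell receptor signals. The 10 genes belong to no single pathway. They encode a secreted antagonist of BMP and Wnt signals (*Sostdc1*), membrane proteins (*Susd2*, *Ms4a4c*), a protease (*Napsa*), an enzyme that turns arginine in proteins into citrulline (*Padi4*), a cyclic nucleotide phosphodiesterase (*Pde3b*), a Rac regulator that binds diacylglycerol (*Chn2*), a protein that binds unmethylated CpG DNA (*Cxxc5*) and less studied proteins named for a domain (*Lratd1*) or for testis development (*Tdrp*).

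The choice used the measured difference between DKO and WT anergic cells and, through the interaction, the naive libraries too. Those contrasts are therefore given as a description with no test. Ordered by p among genes that were higher in DKO anergic cells, *Napsa*, *Padi4*, *Lratd1*, *Ms4a4c*, *Tdrp*, *Sostdc1* and *Chn2* held ranks 1 to 7, *Pde3b* rank 10, *Susd2* rank 11 and *Cxxc5* rank 46. In the interaction *Cxxc5* held rank 5, *Tdrp* rank 1 and *Susd2* rank 111, the last of the 10. Genes of similar rank that are not among the 10 were *Gm14150* at rank 8 (17.8 TPM in DKO anergic and 0.593 TPM in WT anergic cells on average), the chemokine receptor gene *Cx3cr1* at rank 9 (28.3 and 1.37 TPM in DKO and WT anergic cells) and *Igfbp7* at rank 12 (58.3 and 4.58 TPM in DKO and WT anergic cells). The 10 are thus not set off by a single cut on this rank. At neighbouring ranks, the member *Susd2* (rank 11) was 2.12 ± 0.23 (SE) higher on the log2 scale and the non-member *Igfbp7* (rank 12) 3.89 ± 0.44 higher. All 10 genes passed the filter on low counts that left 33795 genes for the tests.

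Several facts of the whole series bear on the values below. In chimera 12, the WT naive library and the WT stimulated library correlated least with the other libraries of their group (mean r on log2 CPM of 0.9423 and 0.9489, against 0.9522 to 0.9739 for the other 16). *Nr4a1* was counted at 162 to 169 TPM in DKO anergic and 170 to 195 TPM in WT anergic cells, and *Nr4a3* at 11 to 15.7 TPM in DKO anergic and 6.33 to 11.3 TPM in WT anergic cells, so transcripts of the disrupted loci are still read and do not check the genotype. CD4 T cell markers were high in every library (8 genes, summed level 5306 to 7757 TPM). Treg markers were lower in DKO anergic cells for all 8 genes of the list with no overlap (summed level 890 to 904 TPM in DKO anergic and 2350 to 2554 TPM in WT anergic cells), and *Foxp3* stood at 17.9 to 20.9 TPM in DKO anergic and 447 to 533 TPM in WT anergic cells. T follicular helper markers were higher in DKO anergic cells for 6 of 7 genes with no overlap (summed level 4487 to 5478 TPM in DKO anergic and 2412 to 3058 TPM in WT anergic cells), while *Sh2d1a*, named here after its values were seen, was lower with no overlap (93.2 to 103 TPM in DKO anergic and 137 to 151 TPM in WT anergic cells). On TPM, without the scaling of the count fit, the DKO anergic libraries lay wholly above the WT anergic ones for 5.97% of all genes tested. They lay wholly below them for 17.7%. In the fit the balance was the other way, with 0.879% called higher and 0.459% lower. Of those calls 65.7% were higher, against 38.4% without chimera 12. The part of the Treg and T follicular helper marker shifts in the values of the 10 genes was not tested. In these bulk libraries fewer cells of a type and less RNA per cell cannot be told apart.

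Promoter windows from RefSeq (GRCm38.p6, 250 bases before and 50 after a gene's start) were at hand for *Padi4*, *Lratd1*, *Ms4a4c* and *Chn2*, 7 windows in all. They were searched because the members were chosen for a shared difference in anergic cells. The NR4A monomer site NBRE (AAAGGTCA, on either strand) was in none of them and in 1.51% of all 32851 windows. An AP-1 site (TGANTCA, either strand) was in that of *Padi4* and in 7.81% of all windows. An NFAT core (TGGAAA, either strand) was in that of *Lratd1* and in 21.4% of all windows. The 250 bases before the RefSeq start of both genes follow, 5′ to 3′ on the minus strand. *Padi4* is from chr4:140774204-140774453 with the AP-1 letters in capitals, and *Lratd1* from chr12:14152039-14152288 with the NFAT letters in capitals.
Padi4: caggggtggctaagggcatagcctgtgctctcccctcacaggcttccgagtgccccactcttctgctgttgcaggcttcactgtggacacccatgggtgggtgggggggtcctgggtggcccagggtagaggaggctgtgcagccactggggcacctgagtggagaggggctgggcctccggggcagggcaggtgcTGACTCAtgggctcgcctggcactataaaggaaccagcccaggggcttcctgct
Lratd1: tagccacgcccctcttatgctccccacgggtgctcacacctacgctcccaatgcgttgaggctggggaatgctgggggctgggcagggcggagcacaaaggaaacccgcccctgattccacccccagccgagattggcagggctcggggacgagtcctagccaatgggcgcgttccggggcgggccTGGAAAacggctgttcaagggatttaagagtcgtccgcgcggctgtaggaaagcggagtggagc
The capitals start 54 bases before the RefSeq start of *Padi4* and 64 bases before that of *Lratd1*. GENCODE vM21 places these starts elsewhere, at chr4:140774236 and chr12:14152054, inside the printed windows, so the capitals lie closer to them. A match of letters is a description of the window.

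The 10 genes lie on 8 chromosomes in GRCm38 (GENCODE vM21), all as protein-coding genes: *Padi4* at chr4:140745865-140774236, *Chn2* at chr6:54039554-54301810, *Napsa* at chr7:44572380-44586862, *Pde3b* at chr7:114415281-114539251, *Tdrp* at chr8:13952008-13975032, *Susd2* at chr10:75636706-75644008, *Lratd1* at chr12:14146830-14152054 (named *Fam84a* there), *Sostdc1* at chr12:36314139-36318452, *Cxxc5* at chr18:35829397-35861688 and *Ms4a4c* at chr19:11404770-11427246. *Padi4* is the only member on a chromosome that carries a disrupted locus or *Ptprc*, the gene whose alleles are the CD45.1 and CD45.2 markers, and lies 92.7 Mb from *Nr4a3*. Exons of *Napsa*, *Ms4a4c*, *Chn2* and *Cxxc5* overlap those of genes on the other strand, and the library kit does not mark strand, so reads there cannot be told apart. Exons of *Cxxc5* also overlap those of *AC141471.2* on the same strand. *AC141471.2* has no entry among the counts, so its level is not known. The overlapping entries that the table holds stood at 0 to 2.84 TPM in the anergic libraries. Of all 100-base words in the transcripts of a gene, 11.4% for *Napsa* and 6.67% for *Chn2* also occur in an overlapping partner, and 1.66% for *Ms4a4c* in its relative *Ms4a4b*, so reads there are uncertain, and the other 7 members share none.

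Against naive cells the 10 genes fell into 2 patterns, which were noticed in the values. *Sostdc1*, *Susd2*, *Padi4*, *Cxxc5*, *Lratd1*, *Napsa* and *Chn2* had low levels in DKO and WT naive cells, higher levels in WT anergic cells and higher ones still in DKO anergic cells. *Pde3b*, *Tdrp* and *Ms4a4c* were expressed in naive cells, lower in WT anergic cells, and less low in DKO anergic cells. In all 10 the lowest DKO anergic library lay above the highest WT anergic library. That holds for 5.97% of all genes tested, and nothing is read from it here, since the genes were chosen for it.

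**Figure D1:**
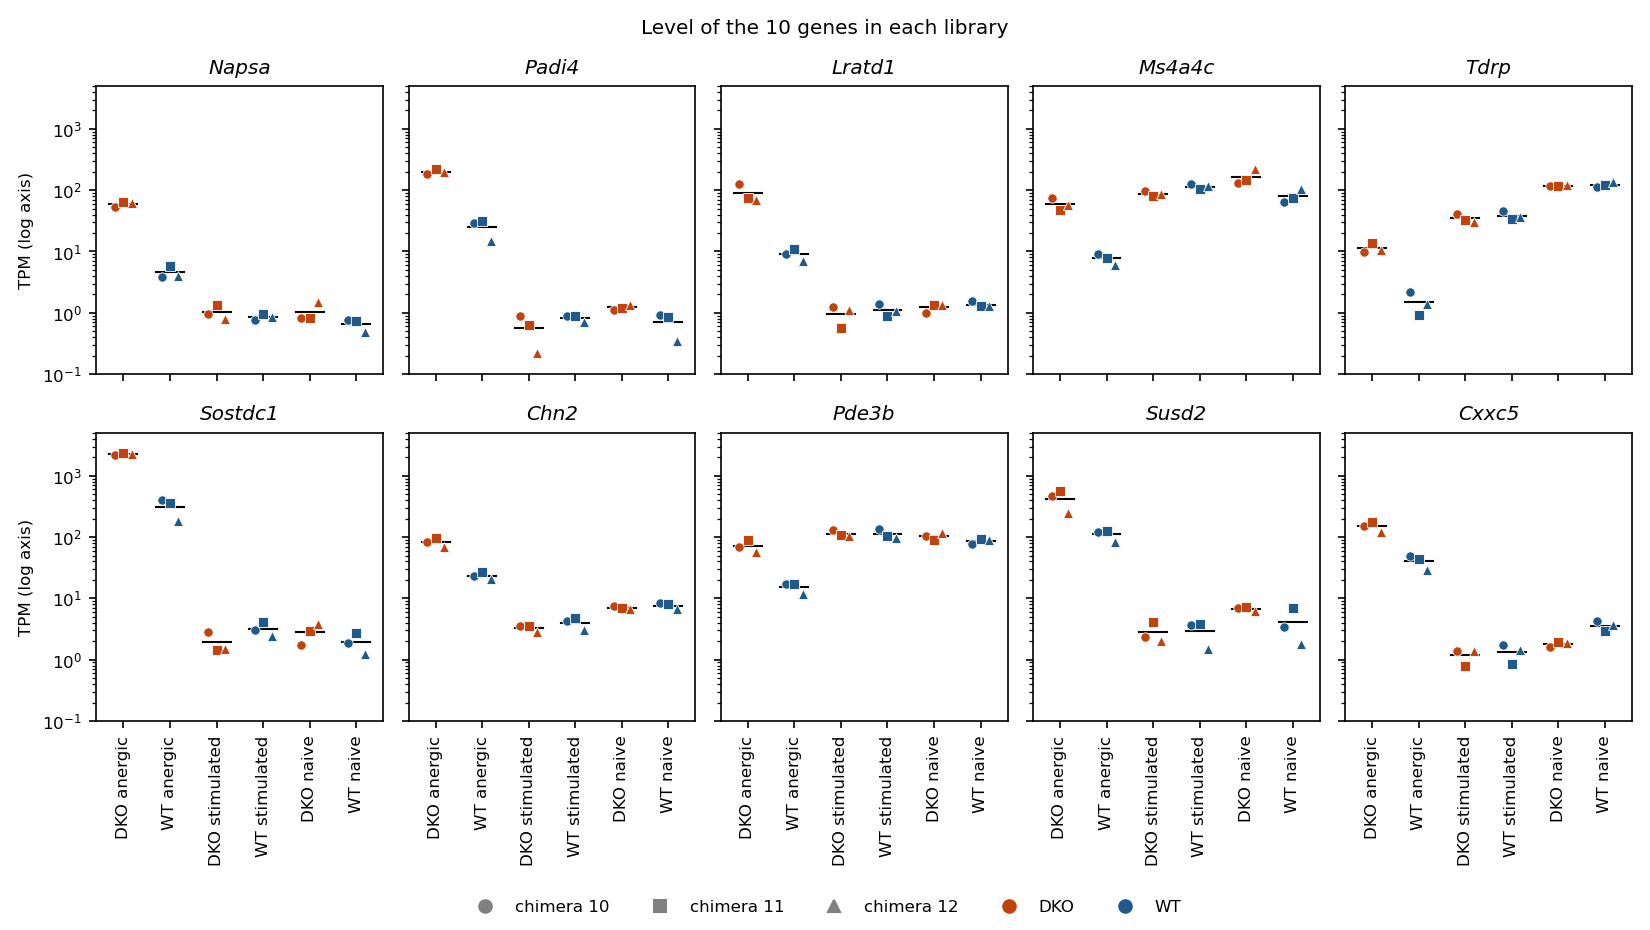
Level of each of the 10 genes in TPM on a log axis, with 1 point a library (18 libraries, marker by chimera, DKO in orange and WT in blue) and a bar at the mean of each group. *Sostdc1* reached 2141 to 2357 TPM in DKO anergic and 182 to 395 TPM in WT anergic cells, while *Tdrp*, *Pde3b* and *Ms4a4c* had their lowest levels in WT anergic cells.

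*Sostdc1* encodes a secreted protein that antagonizes BMP ligands and modulates Wnt signals through LRP co-receptors. It was the most abundant of the 10, at 2141, 2357 and 2223 TPM in DKO anergic cells of chimeras 10, 11 and 12, against 395, 355 and 182 TPM in WT anergic cells of the same hosts. In naive cells its level was low, at 1.71, 2.97 and 3.89 TPM in DKO and 1.86, 2.77 and 1.26 TPM in WT libraries. The DKO anergic libraries lay close together, while the WT anergic library of chimera 12 was below the other WT anergic libraries. The fitted difference between DKO and WT anergic cells was 3.10 ± 0.31 (log2, SE), and anergic over naive cells stood at 9.78 ± 0.43 in DKO and 7.12 ± 0.39 in WT cells.

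*Susd2* encodes a membrane protein with a sushi domain. It had 462, 556 and 246 TPM in DKO anergic cells of chimeras 10, 11 and 12, against 122, 126 and 83.8 TPM in WT anergic cells. Chimera 12 gave the lowest value in both genotypes, and within each host the log2 difference was 2.13, 2.34 and 1.88. Naive libraries held 6.22 to 7.33 TPM in DKO and 1.8 to 7.09 TPM in WT cells, so the fitted difference of 2.12 ± 0.23 in anergic cells stood beside one of 0.79 ± 0.25 in naive cells.

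*Ms4a4c* belongs to the MS4A family of membrane-spanning proteins. Unlike *Sostdc1* and *Susd2*, it was well expressed in naive cells, at 129, 147 and 218 TPM in DKO and 64.7, 73.7 and 106 TPM in WT libraries. In anergic cells it stood at 73.7, 46.6 and 57.5 TPM in DKO and 9.23, 7.90 and 6.01 TPM in WT libraries. Naive and anergic libraries did not overlap in either genotype, and the DKO library was the higher one in every host and both gates. Anergic over naive cells came to −1.31 ± 0.26 (log2, SE) in DKO and −3.58 ± 0.30 in WT cells.

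*Napsa* encodes napsin A, an aspartic protease best known from lung and kidney. Its level was 52.6, 65.2 and 60.9 TPM in DKO anergic cells of chimeras 10, 11 and 12 and 3.89, 5.80 and 4.01 TPM in WT anergic cells. Naive cells held 0.807 to 1.49 TPM in DKO and 0.479 to 0.748 TPM in WT libraries, from 13 to 20 counts each. The fitted difference of 3.94 ± 0.34 in anergic cells was the largest of the 10 genes on the log2 scale. DKO anergic cells thus held 15.4 times the *Napsa* level of WT anergic cells in the fit.

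*Padi4* encodes peptidylarginine deiminase 4, which citrullinates histones and is best known from neutrophils. It stood at 183, 219 and 195 TPM in DKO anergic cells, against 29.4, 31.1 and 15.0 TPM in WT anergic cells. In naive cells it was low, at 1.11 to 1.35 TPM in DKO and 0.344 to 0.905 TPM in WT libraries. The summed level of 9 neutrophil markers was 10.5 to 18.3 TPM in DKO anergic and 16 to 21.1 TPM in WT anergic cells. Only *S100a8* was under 1 TPM in all 6 libraries. *Retnlg*, named here after its values were seen, stood at 4.28 to 11.5 TPM in DKO anergic and 5.15 to 10.7 TPM in WT anergic cells. The fitted difference for *Padi4* was 3.27 ± 0.29 in anergic and 0.75 ± 0.35 in naive cells (log2, SE).

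*Pde3b* encodes a phosphodiesterase that hydrolyses cyclic AMP. It was expressed at like levels in naive cells of both genotypes, at 103, 90.1 and 118 TPM in DKO and 78.0, 93.5 and 89.3 TPM in WT libraries. WT anergic cells held 16.9, 17.1 and 11.6 TPM, while DKO anergic cells held 69.4, 88.5 and 57.6 TPM. On TPM every DKO anergic library thus lay above the WT anergic and below the DKO naive ones, and the highest of them above the lowest WT naive one. On log2 CPM the DKO anergic library of chimera 11 was above the DKO naive library of that host (7.99 and 7.86). Anergic over naive cells came to −0.38 ± 0.25 (log2, SE) in DKO and −2.74 ± 0.27 in WT cells.

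*Chn2* encodes β2-chimaerin, which binds diacylglycerol and switches off Rac. Its level was 83.9, 95.9 and 68.8 TPM in DKO anergic and 23.1, 26.5 and 20.8 TPM in WT anergic cells of chimeras 10, 11 and 12. The difference hardly varied between hosts, at 2.07, 2.05 and 2.05 on the log2 scale. Naive cells held 6.74 to 7.40 TPM in DKO and 6.59 to 8.37 TPM in WT libraries, ranges that overlap.

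*Cxxc5* encodes a CXXC zinc finger protein that binds CpG DNA and is also known to bind Dishevelled, an intracellular Wnt mediator. It stood at 151, 176 and 122 TPM in DKO anergic and 49.8, 43.1 and 29 TPM in WT anergic cells. In naive cells the order was the other way round, with 1.58, 1.95 and 1.84 TPM in DKO and 4.23, 2.90 and 3.68 TPM in WT libraries, and no overlap. This gave −1.14 ± 0.34 (log2, SE) for DKO over WT naive cells, the lowest of the 10 genes there, beside 2.12 ± 0.30 for DKO over WT anergic cells.

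*Lratd1* encodes an LRAT domain protein of little known function. DKO anergic cells held 125, 73.3 and 69.1 TPM and WT anergic cells 8.92, 11.1 and 7.11 TPM. The DKO anergic library of chimera 10 was well above the other DKO anergic libraries, and all 3 were above the WT ones. Naive libraries of both genotypes lay between 0.987 and 1.54 TPM.

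*Tdrp*, named for testis development, was high in naive cells, at 117, 116 and 123 TPM in DKO and 113, 123 and 134 TPM in WT libraries. In anergic cells it was at 9.74, 13.5 and 10.7 TPM in DKO and 2.20, 0.925 and 1.38 TPM in WT libraries, the WT values resting on 27 to 78 counts. Anergic cells of both genotypes lay far below naive cells (−3.24 ± 0.28 in DKO and −6.59 ± 0.33 in WT cells, log2, SE). *Tdrp* was thus higher in DKO than WT anergic cells at a level far below that in naive cells, with a fitted ratio to naive cells of 0.106 in DKO and 0.0104 in WT cells.

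**Figure D2:**
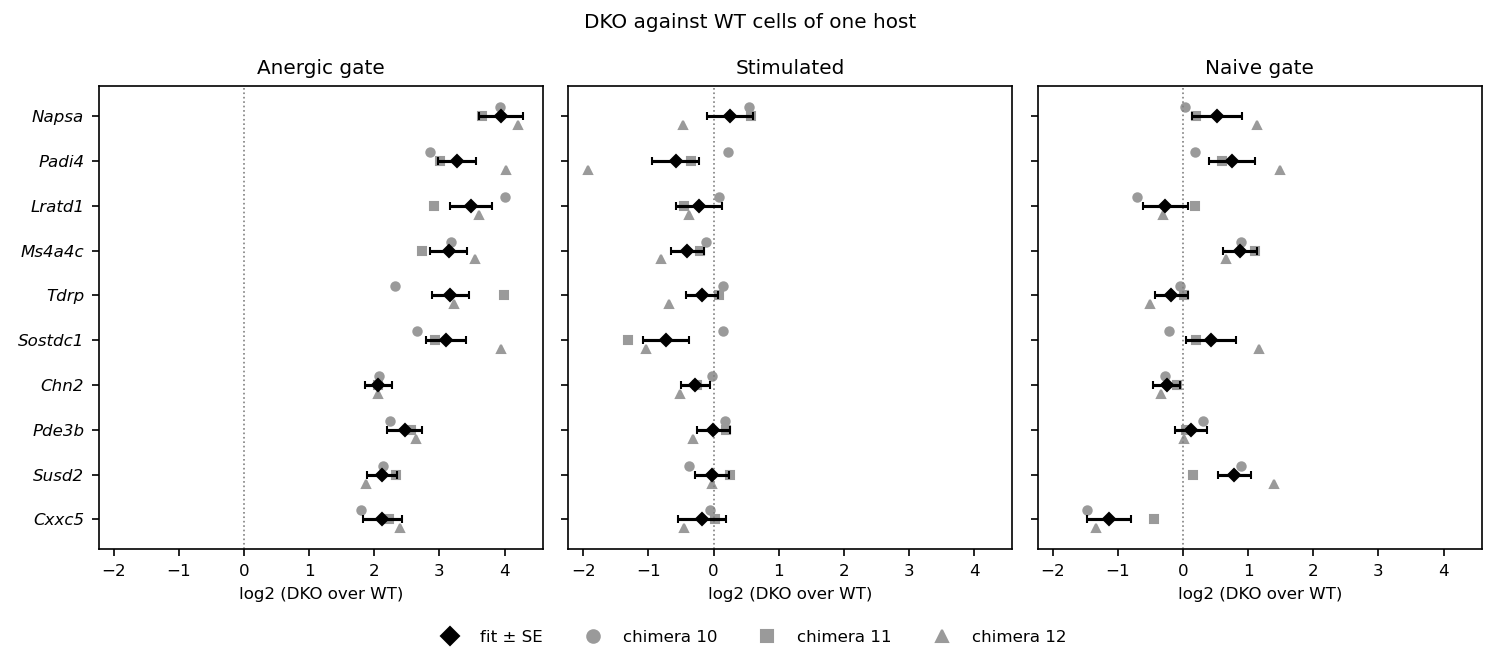
Log2 ratio of DKO over WT for the 10 genes in the anergic gate, after stimulation and in the naive gate, with the fit and its SE (black diamond and bar) and the difference within each chimera on log2 CPM (grey). In the anergic gate every chimera lay above 0 for every gene, the contrast the genes were chosen on, while the fitted values after stimulation ran from −0.73 to 0.25.

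Stimulated cells are the population whose genotype difference is measured on libraries that the choice did not use. The fit still takes its estimate of the spread and its chimera terms from all 18 libraries. None of the 10 genes differed between DKO and WT stimulated cells at an adjusted p under 0.05 (edgeR's quasi-likelihood test, Benjamini-Hochberg over 33795 genes), where 0.216% of all genes tested did. At an unadjusted p under 0.05 there were likewise 0 of 10, beside 2.88% of all genes tested, and neither DESeq2 nor limma nor any other of the 12 alternatives called a member. The fitted log2 differences ran from −0.73 ± 0.36 (SE) for *Sostdc1* to 0.25 ± 0.35 for *Napsa*, with a median of −0.20 over the 10 and −0.02 over all genes tested. An adjusted p above the threshold does not show equal levels: with an SE of 0.22 to 0.37, differences well under those in anergic cells remain possible.

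Low levels limit this comparison for 7 of the genes. *Padi4* stood at 0.874, 0.626 and 0.219 TPM in DKO stimulated and 0.891, 0.882 and 0.697 TPM in WT stimulated cells, and *Napsa* at 0.796 to 1.35 TPM in DKO stimulated and 0.751 to 0.962 TPM in WT stimulated cells. *Sostdc1* was at 2.85, 1.43 and 1.52 TPM in DKO stimulated and 3.07, 4.12 and 2.40 TPM in WT stimulated cells. The ranges of all of these overlapped, and no stimulated library came near the levels of the anergic gate. *Ms4a4c* was the only member whose stimulated libraries did not overlap, lower in DKO, at 95.7, 81.2 and 87.2 TPM in DKO and 124, 103 and 115 TPM in WT stimulated cells, with an adjusted p of 1 in the same test and a log2 difference of −0.40 ± 0.26. Libraries did not overlap with DKO lower for 5.66% of all genes tested and with DKO higher, as for none of the 10, for 3.36%. *Pde3b* stood at 129, 108 and 103 TPM in DKO stimulated and 137, 104 and 95.2 TPM in WT stimulated cells, a fitted ratio of 0.999.

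After acute stimulation for 3 h none of the 10 genes was higher past the threshold in either genotype in the fit of all libraries, and some were lower. Among alternatives, *Pde3b* was called higher in 3 of 12 in DKO cells (lowest adjusted p = 0.0079) and in 2 of 12 in WT cells (0.015), *Ms4a4c* lower in 4 of 12 in DKO cells (0.00594) and higher in 3 of 12 in WT cells (0.00149), and *Padi4* lower in 1 of 12 in DKO cells (0.0409). The naive libraries of these comparisons also entered the interaction used for the choice. Stimulated over naive, 3 of 10 fell in DKO cells, *Tdrp*, *Susd2* and *Chn2*, and 3 of 10 fell in WT cells, *Tdrp*, *Cxxc5* and *Chn2*. Of all genes tested, 5.73% fell and 8.34% rose in DKO cells, and 4.79% fell and 7.13% rose in WT cells. The balance depends on the fit: 59.3% of the calls were higher in DKO cells, against 70.9% with RLE size factors and 41.6% with limma on log2(TPM + 1), and 59.8% in WT cells, against 40.3% with only the groups compared. *Tdrp* stood at 41.6, 33 and 30.3 TPM in DKO stimulated and 117, 116 and 123 TPM in DKO naive cells, and at 45.0, 34.0 and 36.2 TPM in WT stimulated and 113, 123 and 134 TPM in WT naive cells. Its log2 fold change was −1.47 ± 0.26 (SE) in DKO (adjusted p = 0.000176, edgeR) and −1.48 ± 0.26 in WT cells (adjusted p = 0.000199, edgeR), called in all 12 alternatives. Thus *Tdrp* was lower both after acute stimulation and in the anergic gate, but DKO and WT cells differed in fitted level by 3.17 in the anergic gate and by −0.18 after stimulation.

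*Chn2* fell by 0.78 on the log2 scale in DKO (SE 0.22, adjusted p = 0.0132, edgeR) and by 0.74 in WT cells (SE 0.21, adjusted p = 0.02, edgeR), with 2.85 to 3.59 TPM in DKO stimulated and 6.74 to 7.40 TPM in DKO naive cells, and 3.07 to 4.74 TPM in WT stimulated and 6.59 to 8.37 TPM in WT naive cells. This is opposite in direction to its position in the anergic gate. Both calls were lost with RLE size factors (adjusted p = 0.279 in DKO and 0.124 in WT cells), with DESeq2 (0.171 and 0.0524 in DKO and WT cells), without chimera 10 (0.455 and 0.642) and without chimera 11 (0.188 and 0.183). *Susd2* fell by 1.03 in DKO cells (SE 0.25, adjusted p = 0.00481, edgeR), at 2.32, 4.13 and 1.99 TPM in DKO stimulated and 6.93, 7.33 and 6.22 TPM in DKO naive cells. Without chimera 10, with RLE size factors and without the pairing by chimera, the adjusted p for *Susd2* was 0.302, 0.0859 and 0.0601. The median over all genes tested was −0.36 for stimulated over naive DKO cells and 0.03 for WT cells, and −0.17 in DKO cells with RLE size factors and −0.15 over the genes with an average log2 CPM over 1, so that a fall in DKO cells is smaller relative to the other genes. *Cxxc5* fell by 1.27 in WT cells (SE 0.34, adjusted p = 0.013, edgeR), at 1.71, 0.851 and 1.42 TPM in WT stimulated and 4.23, 2.90 and 3.68 TPM in WT naive cells, a call lost without chimera 10 (adjusted p = 0.248) and without chimera 11 (0.11).

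**Figure D3:**
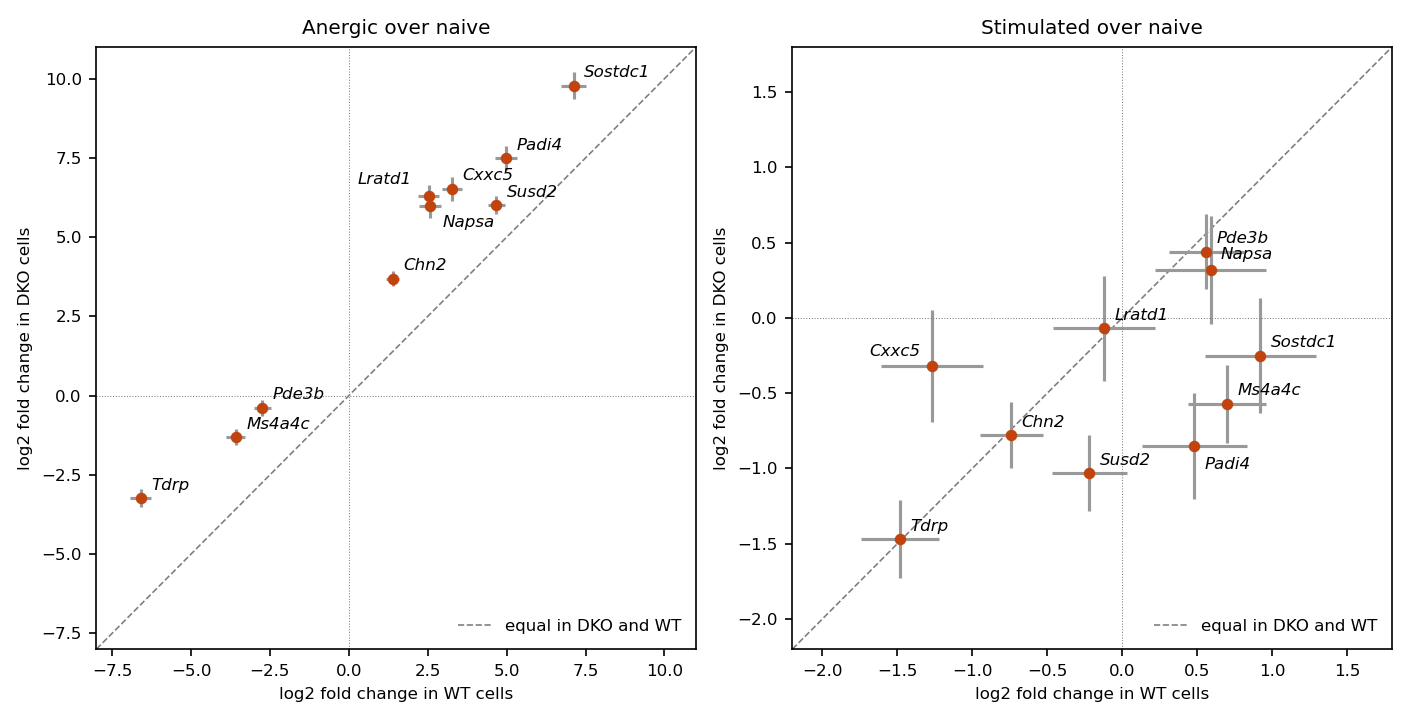
Log2 fold change in DKO cells (vertical) against that in WT cells (horizontal) for the 10 genes, anergic over naive on the left and stimulated over naive on the right, with SE bars and a dashed line of equal change. All 10 lay above the line for anergic over naive, by 1.33 (*Susd2*) to 3.77 (*Lratd1*), and on either side of it for stimulated over naive.

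Whether the response to stimulation differed between genotypes was tested as an interaction. None of the 10 passed an adjusted p of 0.05, beside 0.00296% of all genes tested, which is the 1 gene *Gpr155*, named here after its value was seen. At an unadjusted p under 0.05 there were 4 of 10, *Ms4a4c*, *Padi4*, *Sostdc1* and *Susd2*, beside 1.87% of all genes tested, and none of the 12 alternatives called a member after adjustment. For *Ms4a4c*, stimulated over naive stood at −0.57 ± 0.26 in DKO and 0.70 ± 0.26 in WT cells (interaction −1.27 ± 0.37, unadjusted p = 0.00202, adjusted p = 1, edgeR). DKO over WT naive cells stood at 0.87 for *Ms4a4c*, 0.75 for *Padi4*, 0.43 for *Sostdc1* and 0.79 for *Susd2*, and these naive libraries were part of the choice. The median interaction over all genes tested was −0.20, and 0.01 with RLE size factors, beside −0.20 and 0.04 over the 10. Over the 15067 genes with an average log2 CPM over 1 it was −0.04.

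A fit without both non-anergic WT libraries of chimera 12 left the direction of the anergy values as it was, from which nothing is read, since the genes were chosen on them. The interaction with anergy then ran from 1.49 (*Susd2*, 1.33 with all libraries) to 3.64 (*Lratd1*, 3.77 with all libraries). DKO over WT naive cells was −0.92 for *Cxxc5*, against −1.14 with all libraries, and 1.18 for *Ms4a4c*, against 0.87. Stimulated over naive WT cells was then called for *Ms4a4c* (0.81 ± 0.23, adjusted p = 0.0183, edgeR), which was at 0.70 with an adjusted p of 0.0896 with all libraries. Stimulated over naive DKO cells was called for *Pde3b* (0.56 ± 0.18, adjusted p = 0.0252, edgeR), at 0.44 with an adjusted p of 0.321 with all libraries.

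Across the 18 libraries the 2 patterns were each tight, which describes how the members were seen to group and has no test. Pearson's r of log2 CPM was 0.90 to 0.99 (median 0.96) over the 21 pairs among the 7 genes low in naive cells and 0.86 to 0.96 over the 3 pairs among *Pde3b*, *Tdrp* and *Ms4a4c*. Between them it was −0.75 to −0.28 over 21 pairs. These libraries come from 6 groups of 3 hosts, and the gate sets most of the range. Among 15057 other genes with an average log2 CPM over 1, those whose log2 CPM was most like the mean z score of the 10 over the 18 libraries were *Fam71b* (r = 0.972), *Armcx2* (0.941), *Cbfa2t3* (0.938), *Efnb2* (0.932) and *Arhgap5* (0.923). That mean blends the 7 genes of one pattern with the 3 of the other, and it carries the DKO over WT anergic difference used for the choice. *Fam71b* stood at 40.6 ± 11.5 TPM in DKO anergic and 5.17 ± 2.22 TPM in WT anergic cells (SD, n = 3 each), and *Efnb2*, which encodes the membrane ligand ephrin B2, at 12.4 ± 4.03 TPM in DKO anergic and 1.65 ± 0.164 TPM in WT anergic cells.

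Relatives and known partners of the 10 genes, 114 genes in 11 lists, show how far each family moved with its member. Of 105 that passed the filter, 5 were higher in DKO anergic cells, beside 0.879% of all genes tested, and 2 were lower, beside 0.459% (edgeR's quasi-likelihood test, adjusted over all genes). The lists were chosen with earlier results of these data known, so no excess over these shares is read as a result. Of all calls 65.7% were higher, against 38.4% without chimera 12 and 46.9% with limma on log2(TPM + 1). The median log2 difference over the 105 was 0.08, against −0.03 over all genes tested. In stimulated cells 0 of 105 were higher in DKO cells, beside 0.0473% of all genes tested, and 2 were lower, beside 0.169%, a split of all calls (21.9% higher) that was 58.4% higher without chimera 12 and 63.9% without both of its non-anergic WT libraries. The calls in anergic cells numbered 1 without chimera 10, 2 without chimera 11 and 14 without chimera 12, and 12 without both non-anergic WT libraries of chimera 12.

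**Figure D4:**
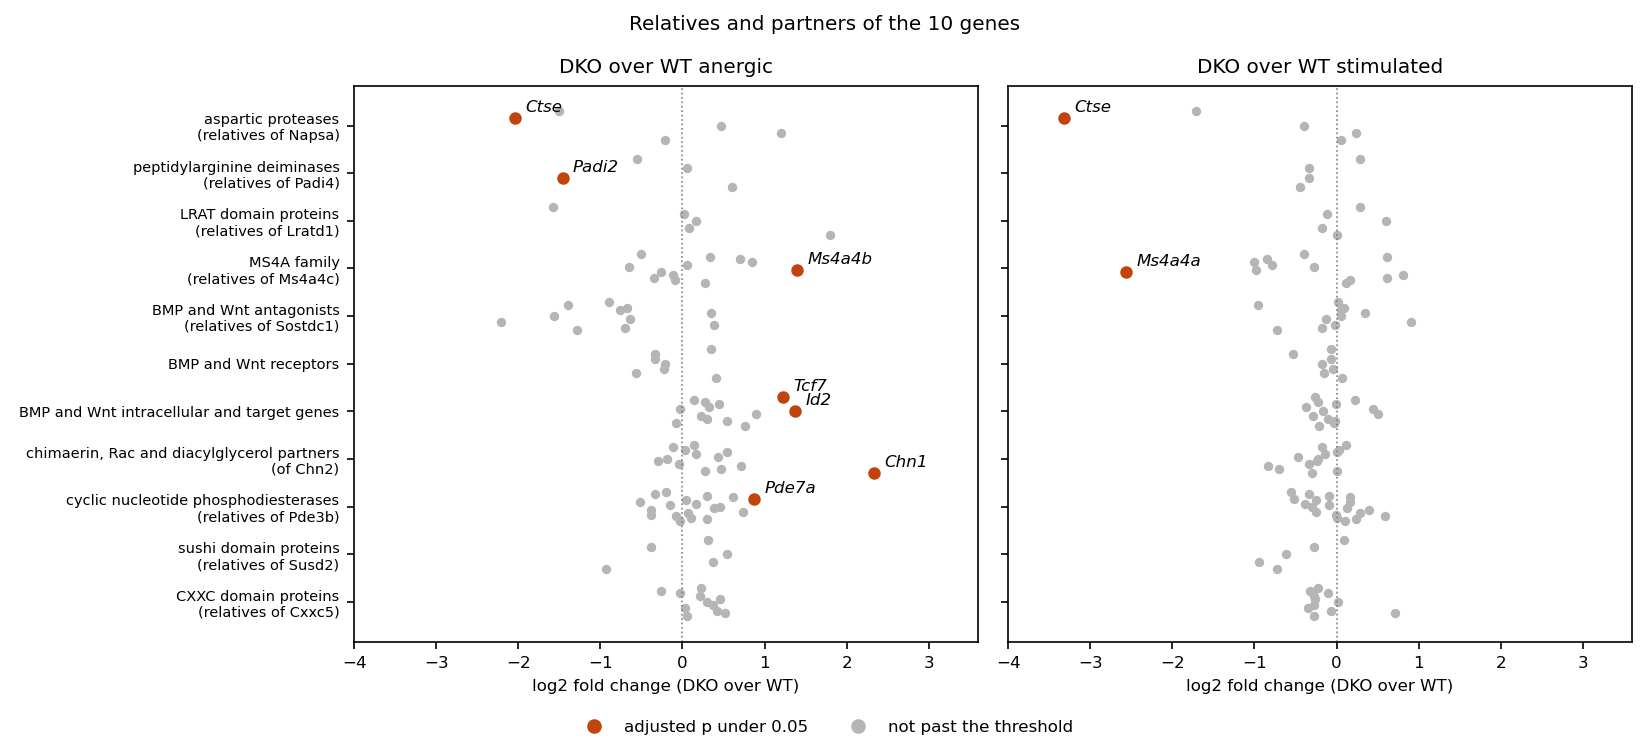
Log2 difference of DKO over WT in anergic cells (left) and stimulated cells (right) for the 105 relatives and partners tested, 1 point a gene, by list. Genes at an adjusted p under 0.05 are orange and named, and they number 7 in anergic and 2 in stimulated cells.

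Among aspartic proteases, *Ctse* (cathepsin E) was lower in DKO anergic cells, where *Napsa* was higher. It had 85, 87.2 and 92.5 TPM in DKO anergic cells, against 433, 451 and 390 TPM in WT anergic cells (log2 −2.04 ± 0.25, adjusted p = 1.75e-05, edgeR). In stimulated cells it had 27.3, 23.4 and 22 TPM in DKO and 228, 229 and 238 TPM in WT libraries (−3.32 ± 0.26, adjusted p = 1.57e-07, edgeR). In naive cells, for which no test is given here, it stood at 48.8 to 64.3 TPM in DKO and 342 to 379 TPM in WT libraries, so the groups did not overlap in any of the 3 populations. No overlap with DKO lower held for 17.7% of all genes tested in anergic and 5.66% in stimulated cells, and the share in naive cells is not given. *Ctse* lies 6.39 Mb from *Ptprc*, whose alleles differ between the donors, and the part of linked alleles in its level was not tested. The lysosomal protease *Ctsd*, the highest of the list on the mean over all 18 libraries, stood at 331 TPM in DKO anergic and 280 TPM in WT anergic cells on average and did not pass the test (0.47 ± 0.23). Nor did *Bace2* (1.20 ± 0.39), but it was called higher in anergic cells in 4 of 12 alternatives.

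No other deiminase was called higher in DKO anergic cells beside *Padi4*. *Padi2* was lower, at 1.56, 1.95 and 4.78 TPM in DKO anergic and 6.69, 7.99 and 11.1 TPM in WT anergic cells (−1.46 ± 0.29, adjusted p = 0.00586, edgeR), a call lost without chimera 10 and without chimera 11 (highest adjusted p = 0.362). The other 3 deiminase genes did not pass the test in anergic cells, nor did any of the 4 in stimulated cells. Those 3 were low, at 0.909 to 1.59 TPM on average in the anergic groups, with an SE of 0.47 to 0.64, so a shift could be missed.

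In the MS4A family 1 of 12 genes tested was higher in DKO anergic cells. *Ms4a4b*, the gene with which *Ms4a4c* shares exon sequence, had 233, 206 and 279 TPM in DKO anergic and 108, 93.4 and 118 TPM in WT anergic cells (1.40 ± 0.24, adjusted p = 0.00128, edgeR; lost without chimera 10 and without chimera 11, highest adjusted p = 0.222). In stimulated cells its values ran the other way, 241, 187 and 172 TPM in DKO and 442, 352 and 372 TPM in WT libraries. The difference did not pass the test (−0.98 ± 0.24, adjusted p = 0.124, edgeR), but *Ms4a4b* was called lower there in 6 of 12 alternatives. *Ms4a4a* was lower in DKO stimulated cells, at 5.06, 3.51 and 4.64 TPM, against 29.7, 21.8 and 25.7 TPM in WT stimulated cells (−2.56 ± 0.45, adjusted p = 0.00582, edgeR; lost without chimera 10 and without chimera 11, highest adjusted p = 0.458). *Ms4a6b*, the highest of the family, stood at 311 TPM in DKO anergic and 349 TPM in WT anergic cells on average. It was called lower in DKO stimulated cells in 4 of 12 alternatives, and *Ms4a6c* in 2 of 12. In anergic cells *Ms4a6c* was called higher in 2 of 12.

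Around *Sostdc1*, none of the 11 other BMP and Wnt antagonists tested and none of the 7 receptor genes passed the test in anergic cells. Without chimera 12 the antagonist *Sfrp2* and the receptor *Bmpr1a* were called lower there. The antagonists were low (the highest, *Dand5*, averaged 9.57 TPM over the 18 libraries), as were the receptors (*Lrp6*, at 15.5 TPM in DKO anergic and 14.5 TPM in WT anergic cells). Of 13 intracellular and target genes, 2 were higher. *Id2*, a target of BMP signals and an inhibitor of E proteins, had 387, 354 and 456 TPM in DKO anergic and 173, 183 and 181 TPM in WT anergic cells (1.37 ± 0.24, adjusted p = 0.00184, edgeR). *Tcf7*, which encodes the Wnt effector and T cell transcription factor TCF-1, had 2738, 2943 and 2765 TPM in DKO anergic and 1375, 1567 and 1319 TPM in WT anergic cells (1.22 ± 0.27, adjusted p = 0.0184, edgeR). Both genes have known roles in T cells apart from these pathways. Leaving out chimera 10 or chimera 11 ended both calls (highest adjusted p = 0.0657 for *Id2* and 0.549 for *Tcf7*), and that of *Tcf7* was also lost with RLE size factors.

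*Chn1*, the other chimaerin gene, was higher in DKO anergic cells together with *Chn2*. It had 19.5, 16.9 and 14.7 TPM in DKO anergic and 4.77, 5.69 and 2.19 TPM in WT anergic cells (2.33 ± 0.38, adjusted p = 0.000636, edgeR; 0.079 without chimera 10). In naive cells it averaged 0.761 TPM in DKO and 0.435 TPM in WT libraries. None of the other 12 partners tested passed in the fit of all libraries, among them *Rac2*, the abundant Rac of blood cells, at 2075 TPM in DKO anergic and 1674 TPM in WT anergic cells on average (0.54 ± 0.26). In anergic cells *Rac2* and *Prkca* were each called higher in 4 of 12 alternatives, and *Prkcd* and *Prkch* each lower in 2 of 12.

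Of 19 other phosphodiesterase genes 1 passed the test. *Pde7a*, whose product hydrolyses cyclic AMP, stood at 51.6, 42.8 and 43.6 TPM in DKO anergic and 23.6, 36.4 and 28.7 TPM in WT anergic cells (0.87 ± 0.21, adjusted p = 0.0316, edgeR), a call made in 6 of 12 alternatives and lost without chimera 10, without chimera 11, with RLE size factors, DESeq2 and both TPM fits. *Pde4b*, the highest of the list on the mean over all 18 libraries, averaged 54 TPM in DKO anergic and 46.1 TPM in WT anergic cells and did not pass (0.46 ± 0.25). None of the 5 sushi domain genes, the 11 CXXC domain genes or the 5 LRAT domain genes passed in either population. On the mean over all 18 libraries their highest members were *Susd6* (156 and 149 TPM in DKO and WT anergic cells), *Cxxc1* (141 and 159 TPM in DKO and WT anergic cells) and *Plaat3* (45.1 and 52.3 TPM in DKO and WT anergic cells). In anergic cells *Lrat* was called higher in 2 of 11 alternatives, and *Susd1* and *Susd5* each lower in 1. In stimulated cells *Susd3* was called lower in 3 of 12.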

How the data were processed

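RNA from 2000 cell equivalents a sample was made into libraries with SMART-seq v4 and Nextera XT, a protocol that does not mark strand. Read trimming by the authors used fastp, alignment to mm10 used STAR, and featureCounts gave the counts (tool versions: not given in the sources used here). They deposited whole-number counts per gene, used for all tests, and TPM per gene, used for levels. No source used here gives the gene lengths behind the deposited TPM. Another 8 deposited tables hold the authors' own fold changes and p-values and were not used. Of 55401 entries, 117 had no name (0.0654 to 0.136% of the counts) and were left out.

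Groups and chimeras came from the sample labels. Counts of all 18 libraries were fitted with edgeR 4.0.16 in R 4.3.3 (TMM, filterByExpr, quasi-likelihood test, prior count 2) with terms for 6 groups and for the chimera (a block, as in the study's paired analysis), and Benjamini-Hochberg adjustment ran over 33795 genes, with a threshold of 0.05. The pairing comes from the shared host: deviations from the group mean correlated at −0.0811 to 0.298 (median 0.0429) in 9 DKO and WT pairs of the same chimera and at −0.308 to 0.144 in 18 pairs of different chimeras. Replicates differed by more than sampling noise (chi-square per gene of 6.96 to 43.6 in 18 pairs). The alternatives tried were RLE size factors, a fit with no block, DESeq2 1.42.0, other filters, only the groups compared, each chimera left out, 2 WT libraries left out, and limma 3.58.1 on log2(TPM + 1) and log2(TPM + 0.1). The count fit was tested on simulated data for DKO over WT stimulated cells. Named genes are the 10 members, the relatives past the test and the most abundant relative of each list, the 5 genes most like the members, *Nr4a1*, *Nr4a3* and *Foxp3*, and the 3 highest-ranked non-members. Some relatives called only in alternatives are named as well. The members and lists were chosen with earlier results of these data known.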

Additional observations from a re-analysis of the deposited data

How the results depend on the processing

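Each of the 10 genes kept its direction in DKO over WT anergic cells and in the interaction with anergy under all 12 alternatives. The genes were chosen for high values in these contrasts of the same libraries, so nothing is read from this. Of 720 alternative values over 6 comparisons, 607 counted as unchanged: they kept direction and, where a test is given, the side of the threshold. Those given without a test moved by no more than the SD between the 3 chimeras. Another 48 changed sign, 39 given without a test moved by more than that SD, 13 lost and 13 gained a call. Small values changed sign and the cause was not tested.

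Without the block by chimera the calls numbered 78 for DKO over WT stimulated, 4188 and 4857 for stimulated over naive WT and DKO cells, 1 for the interaction with stimulation, 459 for DKO over WT anergic and 132 for the interaction with anergy. The pairing changed the call of *Susd2* in stimulated over naive DKO cells (adjusted p = 0.0601 without it) and the sign for *Tdrp* in the interaction with stimulation (−0.0015).

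Genes called for DKO over WT stimulated numbered 73, against 132 with no filter, 194 with logCPM over 1, 219 with only the groups compared, 183 without both non-anergic WT libraries of chimera 12, 255 and 233 with limma (TPM + 1 and TPM + 0.1) and 24 to 190 with a chimera left out, and the share higher was 21.9%, against 40.2% with no filter, 34.2% with only the groups compared, 58.4% without chimera 12 and 63.9% without its WT libraries. For stimulated over naive WT cells, 4027 became 6258 with logCPM over 1, 6325 and 6240 with limma, and 1752 to 5119 with a chimera left out, and the share higher was 59.8%, against 41% with no filter, 40.3% with only the groups compared, 47.7% and 47.4% with limma and 77.8% without chimera 10. For stimulated over naive DKO cells, 4757 became 8338 with only the groups compared, 7829 without the WT libraries of chimera 12, 7333 with limma on TPM + 1, and 2080 to 6486 with a chimera left out, and the share of calls that were higher was 59.3%, against 70.9% with RLE size factors, 69.8% with DESeq2, 41.6% and 42.7% with limma and 79.2% without chimera 10. The interaction with stimulation had 1 call, against 0 with RLE, 2 with DESeq2, 10 with no filter, 3 with logCPM over 1, 0 with only the groups compared, 3 without the WT libraries of chimera 12, 5 and 3 with limma and 0 to 4 with a chimera left out. DKO over WT anergic had 452 calls, against 679 with no filter, 848 with logCPM over 1, 1619 with only the groups compared, 1597 without the WT libraries of chimera 12, 1036 and 795 with limma and 129 to 2685 with a chimera left out, and the share higher was 65.7%, against 46.9% and 44.5% with limma and 38.4% without chimera 12. The interaction with anergy had 130 calls (59.2% higher; 69.4% with RLE, 73.8% with DESeq2, 78.3% with no filter, 72.9% with only the groups compared, 46% and 48.1% with limma, and 33.3% to 45.8% with a chimera left out), against 279 with DESeq2, 488 with no filter, 312 with logCPM over 1, 221 with only the groups compared, 305 without the WT libraries of chimera 12, 402 and 260 with limma and 12 to 941 with a chimera left out. Relatives called in anergic cells numbered 7, 12 without the WT libraries of chimera 12 and 1 to 14 with a chimera left out, and in stimulated cells 2, 6 with logCPM over 1, 5 with only the groups compared, 9 with either limma fit and 1 to 3 with a chimera left out.

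Sign changes in DKO over WT stimulated were 0.18 (*Lratd1*), 0.17 (*Tdrp*), 0.31 (*Pde3b*), 0.08 (*Susd2*) and 0.33 (*Cxxc5*) without the WT libraries of chimera 12, 0.14 (*Tdrp*), 0.21 (*Pde3b*) and 0.0024 (*Susd2*) without chimera 12, 0.19 (*Susd2*) without chimera 10, 0.11 (*Pde3b*) and 0.05 (*Susd2*) with no filter, 0.11 (*Pde3b*) and 0.04 (*Susd2*) with logCPM over 1, and, for *Pde3b*, 0.06 with only the groups compared and 0.03 with either limma fit. In stimulated over naive DKO cells they were −0.01 (*Napsa*), 0.37 (*Lratd1*) and 0.04 (*Cxxc5*) without chimera 11, 0.18 (*Sostdc1*) without chimera 12, and, for *Lratd1*, 0.11 with RLE and DESeq2, 0.04 with only the groups compared and 0.07 without the WT libraries of chimera 12. In WT cells they were 0.14 (*Lratd1*) without chimera 10 and 0.08 (*Susd2*) without chimera 11. In the interaction with stimulation they were 0.04 (*Napsa*), 0.27 (*Chn2*) and 0.21 (*Pde3b*) with only the groups compared, 0.50 (*Napsa*), 0.07 (*Chn2*) and 0.03 (*Pde3b*) without chimera 12, 0.15 (*Napsa*) and 0.11 (*Chn2*) without the WT libraries of chimera 12, 0.20 (*Chn2*) and 0.13 (*Pde3b*) with RLE and DESeq2, 0.24 (*Chn2*) and 0.18 (*Pde3b*) with no filter, −0.25 (*Lratd1*) without chimera 10, −0.01 (*Tdrp*) and 0.01 (*Chn2*) without chimera 11, and −0.02 and −0.07 (*Lratd1*) and −0.08 and −0.09 (*Tdrp*) with limma on TPM + 1 and TPM + 0.1. With each chimera left out in turn, the values of these genes ran as follows. In DKO over WT stimulated they were −0.29 to 0.14 for *Tdrp* and −0.18 to 0.19 for *Susd2*. In stimulated over naive DKO cells they were −0.01 to 0.80 for *Napsa*, −0.11 at the lowest for *Lratd1*, −0.61 to 0.18 for *Sostdc1* and −0.42 to 0.04 for *Cxxc5*, and in WT cells −0.35 to 0.08 for *Susd2*. In the interaction with stimulation they were −0.62 to 0.50 for *Napsa*, −0.01 to 0.16 for *Tdrp* and −0.23 to 0.03 for *Pde3b*.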
